A study of Homo sapiens with 11 samples.

Results

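The transcripts described here encode 9 members of the S100 family of small calcium-binding proteins: S100A2, S100A4, S100A6, S100A10, S100A11, S100A13, S100A14, S100A16 and S100P. They are 9 of the 58735 genes counted in each library, and were found by matching the Ensembl identifiers of the count tables to these symbols in GENCODE release 29. They were measured in 11 poly(A) RNA libraries from AsPC-1 and PANC-1, established human pancreatic cancer cell lines, with and without small interfering RNA (siRNA) against MYEOV, a gene the study lowered to see which transcripts respond. The 4 groups were AsPC-1 controls (n = 2), AsPC-1 with MYEOV siRNA (n = 3), PANC-1 controls (n = 3) and PANC-1 with MYEOV siRNA (n = 3), with RNA of transfected cells taken 48 hours after transfection. AsPC-1 was grown in RPMI and PANC-1 in DMEM, both with fetal bovine serum, so differences between the lines and between these media cannot be told apart. Control libraries carry wild-type or untreated labels, while the transfection protocol also lists a negative-control siRNA, so how the control cells were treated is not settled. If they were untransfected, an effect of lowering MYEOV and an effect of transfection cannot be told apart in any siRNA comparison below. Likewise, 2 siRNAs against MYEOV are listed, without saying if a library number stands for a replicate or for an siRNA. Nothing in the labels ties libraries to separate cultures, and the p-values below therefore reflect spread among libraries that may be technical.

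S100 proteins are small, mostly dimeric proteins with a pair of EF-hand calcium-binding loops; when calcium binds, most of them expose a surface that grips a target protein. Several act with annexins, which bind membranes in the presence of calcium, and S100A10 holds its annexin partner without needing calcium. Many S100 genes sit in a cluster on chromosome 1. Several members of the family, S100P and S100A4 among them, are widely studied in pancreatic ductal cancer.

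By the GRCh38 annotation, 8 of the 9 genes lie on the minus strand of chromosome 1 and S100P lies on the plus strand of chromosome 4. S100A10 (ENSG00000197747, chr1:151982915-151994390) and S100A11 (ENSG00000163191, chr1:152032506-152047907) form 1 pair, 38115 bases apart. The other members on chromosome 1 are S100A6 (ENSG00000197956, chr1:153534599-153536244), S100A4 (ENSG00000196154, chr1:153543613-153550136), S100A2 (ENSG00000196754, chr1:153561108-153567890), S100A16 (ENSG00000188643, chr1:153606886-153613145), S100A14 (ENSG00000189334, chr1:153614255-153616986) and S100A13 (ENSG00000189171, chr1:153618787-153631360). S100P (ENSG00000163993) spans chr4:6693069-6697170. S100A6 and S100A4 are 7368 bases apart, with S100A5 between them, and S100A16 and S100A14 are 1109 bases apart. S100A13 shares 536 of its 2216 exon bases with AL162258.1 on the same strand and 235 with S100A1 on the opposite strand, and whether reads were counted by strand is not stated, so S100A13 and S100A1 counts are uncertain.

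The promoters are shown for 4 members whose expression is described most closely below, and no expression result was tested against these sequences. S100A6 and S100A4 lie within 7368 bases of each other and differed between the lines in opposite directions, S100A10 had the most counts of the 9 in AsPC-1, and S100A16 was the member whose response to the siRNA differed between the lines. Each runs from 250 bases before to 50 bases after the RefSeq start site (GRCh38.p14, minus strand, printed 5′ to 3′ along the gene), at chr1:153535942-153536241 for S100A6, chr1:153545757-153546056 for S100A4, chr1:151993810-151994109 for S100A10 and chr1:153613088-153613387 for S100A16. Capitals mark a TATA box (TATAAA) or a GC box (GGGCGG).
S100A6: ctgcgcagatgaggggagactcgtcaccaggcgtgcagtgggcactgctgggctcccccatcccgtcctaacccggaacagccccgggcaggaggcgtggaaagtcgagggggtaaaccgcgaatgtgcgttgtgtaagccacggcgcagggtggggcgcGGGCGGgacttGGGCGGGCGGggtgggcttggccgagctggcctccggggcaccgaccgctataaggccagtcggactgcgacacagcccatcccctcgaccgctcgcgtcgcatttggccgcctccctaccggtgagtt
S100A4: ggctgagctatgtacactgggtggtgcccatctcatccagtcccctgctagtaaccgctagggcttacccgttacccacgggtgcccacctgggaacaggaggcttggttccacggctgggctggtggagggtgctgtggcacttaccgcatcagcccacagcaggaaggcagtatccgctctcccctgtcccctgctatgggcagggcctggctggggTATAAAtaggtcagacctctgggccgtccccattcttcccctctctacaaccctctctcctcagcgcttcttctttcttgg
S100A10: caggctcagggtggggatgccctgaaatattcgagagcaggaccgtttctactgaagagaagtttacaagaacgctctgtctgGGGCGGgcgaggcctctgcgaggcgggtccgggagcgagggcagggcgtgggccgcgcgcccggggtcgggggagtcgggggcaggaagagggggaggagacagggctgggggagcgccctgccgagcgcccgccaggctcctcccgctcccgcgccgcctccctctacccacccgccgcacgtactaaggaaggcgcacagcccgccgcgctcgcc
S100A16: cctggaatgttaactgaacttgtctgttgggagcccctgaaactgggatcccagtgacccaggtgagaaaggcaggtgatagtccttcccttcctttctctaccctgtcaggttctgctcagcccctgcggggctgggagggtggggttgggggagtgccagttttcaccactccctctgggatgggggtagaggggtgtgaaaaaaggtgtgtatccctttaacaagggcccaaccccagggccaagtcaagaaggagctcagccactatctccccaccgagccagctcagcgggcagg
Searched on both strands, the letters TATAAA began at position -31 from the start site in S100A4 and at -28 in S100P, and were in 11.5% of 35116 RefSeq promoters of this length. GGGCGG was in the windows of 4 members against 45.0% of all promoters: S100A6 with 3 copies, of which the last pair overlap, and S100A10, S100A11 and S100A13 with 1 each. The AP-1 motif TGANTCA, in 7.71% of promoters, was in the S100A2 window, and CCAAT, in 34.6%, was in none of the 9. S100A14 and S100A16 held none of these 4 motifs. These matches describe the letters in these windows.

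Library totals ran from 12113093 to 15066456 counts, and replicates of every group differed by more than sampling noise. MYEOV itself fell in both lines: from 130 and 131 to between 42.9 and 50.7 CPM (counts divided by the TMM-scaled library size) in AsPC-1, and from between 64.4 and 75.1 to between 35.8 and 39.8 CPM in PANC-1. All 6 epithelial markers reached 1 CPM on average in every group. Their summed level was 18078 to 18272 CPM in AsPC-1 controls and 2265 to 2534 CPM in PANC-1 controls, and the duct keratin KRT7 was low in both (1.56 ± 0.17 and 1.46 ± 0.33 CPM; SD, n = 2 and 3). Of 5 leukocyte markers, CD3E had 0 counts in every library, while LYZ was at 29.5 ± 0.59 CPM in AsPC-1 controls (SD, n = 2). LYZ had 0 counts in PANC-1, and CD14 was at 2.43 CPM in AsPC-1 controls and 1.03 CPM in PANC-1 controls. The acinar markers PRSS1 and CPA1 and the endocrine markers INS and GCG had 0 counts in every library. Mitochondrial genes took 13.2% to 13.9% of counts in AsPC-1 and 6.21% to 6.82% in PANC-1.

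The 9 transcripts fell into an abundant set and a scarce set that were the same in both lines. S100A4, S100A6, S100A10, S100A11 and S100A16 lay between 53.6 and 1510 CPM in every library, whereas S100A2, S100A13, S100A14 and S100P never exceeded 10.6 CPM. Per kilobase of exon, the scale on which genes can be compared with each other, the AsPC-1 controls had S100A4 at 1036 ± 13 CPM per kb, S100A11 at 1019 ± 42 and S100A10 at 959 ± 28 (SD, n = 2). Of these, S100A11 lay within the sum of the SDs of both S100A4 and S100A10, and its place between them is not settled. S100A6 followed at 409 ± 8.2 and S100A16 at 235 ± 11 CPM per kb. The order changed in the PANC-1 controls, where S100A6 led at 710 ± 52 CPM per kb (n = 3), ahead of S100A11 at 385 ± 25, S100A10 at 268 ± 13, S100A4 at 112 ± 3.7 and S100A16 at 34.0 ± 2.2, and these 5 were separated by more than their SDs. Among the scarce members, S100A14 (5.06 ± 0.60) and S100A13 (4.46 ± 0.30) were within their spread of each other in AsPC-1. S100A2 stood at 2.56 ± 0.61 and S100P at 0.865 ± 0.049 CPM per kb there. In PANC-1 controls S100A13 (2.23 ± 0.46) and S100A2 (1.38 ± 0.31) led the scarce set, and S100P (0.157 ± 0.13) and S100A14 (0.0495 ± 0.086) overlapped near 0.

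**Figure D1:**
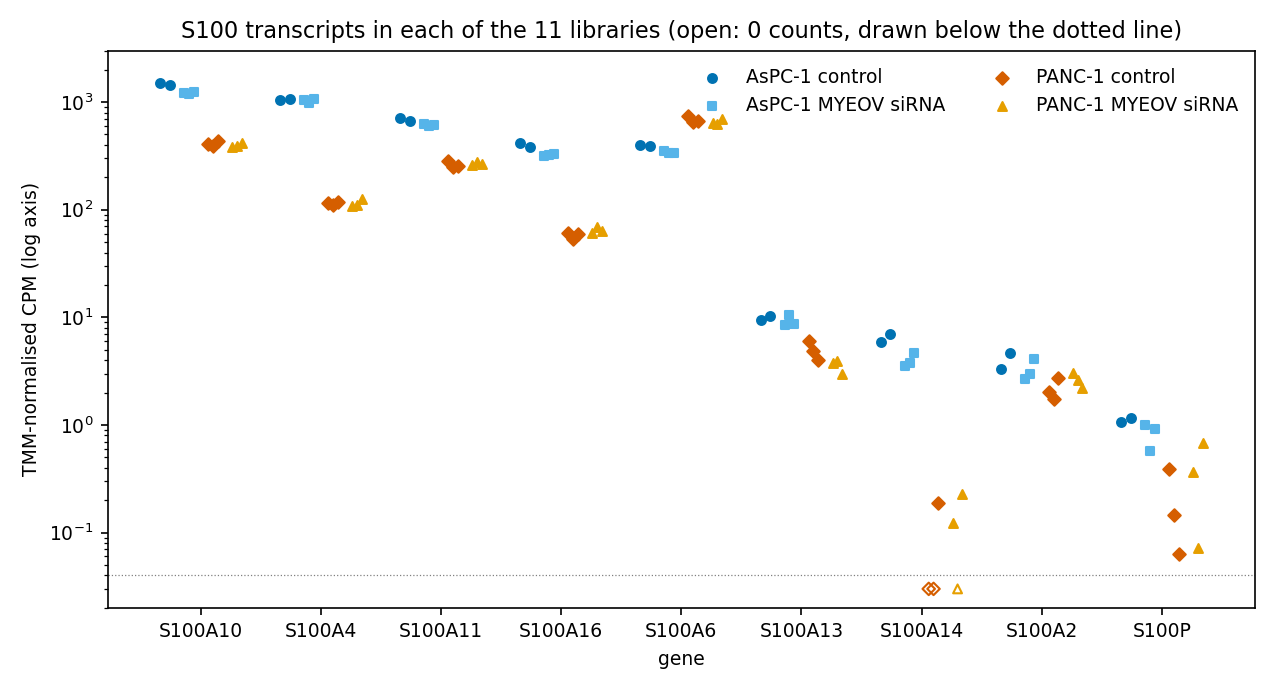
TMM-normalised CPM of the 9 S100 transcripts in each of the 11 libraries on a log axis, with 1 point per library and open symbols for libraries with 0 counts. The 5 transcripts on the left lie above 50 CPM in every library, and S100A6 is the one whose PANC-1 libraries lie above its AsPC-1 libraries.

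The 9 genes together took 0.373% ± 0.0022 of all counts in AsPC-1 controls and 0.167% ± 0.0083 in PANC-1 controls (SD, n = 2 and 3). The make-up of that share differed too. S100A4 supplied 25.6% and 26.8% of the S100 counts in AsPC-1 controls but 7.17% to 7.56% in the PANC-1 controls. S100A6, by contrast, supplied 9.79% and 9.80% in AsPC-1 and 43.5% to 46.0% in PANC-1. S100A11 held nearly the same part in both, 16.9% and 17.3% against 16.5% to 17.3%.

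The comparison of control cells asked how the lines differ without MYEOV siRNA. In PANC-1, 8 of the 9 transcripts were lower than in AsPC-1 and S100A6 alone was higher. All 9 passed the test (edgeR quasi-likelihood test on 2 against 3 control libraries, Benjamini-Hochberg adjusted p under 0.05), in a comparison where 40.3% of 16182 tested genes were called higher in PANC-1 and 36.1% lower, so that a call alone was common. The median log2 fold change of the 9 was -1.86, against 0.06 over all genes tested. S100A14 and S100P passed the low-count filter only through the AsPC-1 controls, where they were higher. Their direction was thus favoured by the filter, and they add no support to the count of 8 or to the median. In bulk libraries, fewer cells making a transcript and less RNA per cell cannot be told apart.

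S100A4, which binds non-muscle myosin and is known for its link to cell motility and metastasis, had the largest difference of the abundant members. It stood at 1053 and 1071 CPM in AsPC-1 controls and at 116, 110 and 117 CPM in PANC-1 controls. The groups lay far apart. On the log2 scale PANC-1 differed by -3.24 (SE 0.05; adjusted p = 1.96e-16 by edgeR), which left 10.6% of the AsPC-1 level. S100A6, also called calcyclin, went the other way: 403 and 391 CPM in AsPC-1 and 746, 651 and 670 CPM in PANC-1. Every PANC-1 control lay above every AsPC-1 control (log2 difference 0.77, SE 0.06; adjusted p = 2.00e-08 by edgeR). The promoters of both are printed above, and their part in these differences was not tested.

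S100A10 and S100A11 are the partners of annexins A2 and A1. S100A10 was at 1510 and 1448 CPM in AsPC-1 controls and at 410, 394 and 435 CPM in PANC-1 controls, with no overlap (log2 change -1.86, SE 0.05; edgeR adjusted p = 8.46e-14). S100A11 was at 713 and 673 CPM against 281, 250 and 254 CPM, again without overlap (-1.43, SE 0.06; edgeR adjusted p = 7.05e-12). S100A16, a broadly expressed member, was at 414 and 386 CPM against 60.9, 53.6 and 59.2 CPM (-2.81, SE 0.07; edgeR adjusted p = 8.20e-15), which left 14.3% of the AsPC-1 level in PANC-1.

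The scarce members were lower in PANC-1 as well, though S100A14 and S100P were tested only because of their AsPC-1 counts. S100A14, a member found mainly in epithelia and a genomic neighbour of S100A16, had 78 and 79 counts in AsPC-1 controls and 0, 0 and 3 in PANC-1 controls. A count of 0 in those PANC-1 libraries allows up to 0.211 and 0.239 CPM (3 counts per library, without TMM scaling). As a ratio of summed counts per total, the PANC-1 level was 1.23% of the AsPC-1 level (95% exact interval 0.251% to 3.66%, counting error only; edgeR adjusted p = 5.79e-09). All 3 of those PANC-1 counts came from control replicate 3; without it both remaining PANC-1 controls were at 0, and the fitted log2 change (-9.44, against -6.43 with all libraries) is then no measure of size. S100P, described in many pancreatic tumours and studied as an extracellular signal, had 14 and 13 counts against 6, 2 and 1, a ratio of 21.5% (95% exact interval 8.88% to 47.0%; edgeR adjusted p = 9.69e-04). Its log2 change was -2.43 (SE 0.55), and -3.34 without PANC-1 control replicate 1. S100P was thus close to the limit of detection in both lines at this depth. S100A13, which takes part in the release of proteins that lack a signal peptide, was at 9.41 and 10.4 CPM against 6.0, 4.85 and 3.98 CPM (log2 change -1.02, SE 0.17; edgeR adjusted p = 7.44e-05). S100A2, a member found mainly in the nucleus, was at 3.34 and 4.70 CPM against 2.02, 1.76 and 2.72 CPM, and its call (-0.89, SE 0.25; edgeR adjusted p = 0.00496) was lost when AsPC-1 control replicate 2 was left out (-0.64; adjusted p = 0.0874).

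**Figure D2:**
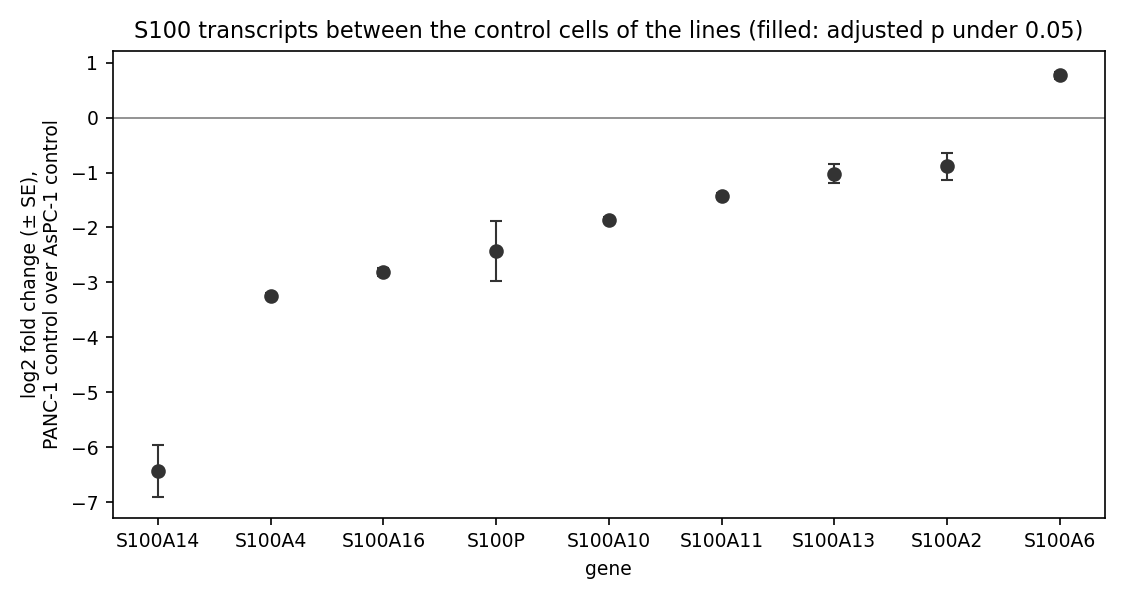
Log2 fold change of each S100 transcript between control cells, PANC-1 over AsPC-1, with its standard error (n = 3 and 2 libraries). Of the 9 points, 8 lie below 0, from S100A14 at -6.43 to S100A2 at -0.89, and S100A6 lies at 0.77.

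The rest of the S100 family was mostly silent. Of the other 12 family genes counted, S100A7A, S100A7L2, S100A8, S100A12 and S100B had 0 counts in all 11 libraries, and S100A7, S100A9, S100G and S100Z had at most 5 counts in any library. S100A8 and S100A9 form calprotectin, the abundant calcium-binding protein of neutrophils. S100A3 was at 6.55 ± 0.61 CPM in AsPC-1 controls and 3.75 ± 0.066 CPM in PANC-1 controls (SD, n = 2 and 3), S100A1 at 2.34 ± 0.20 and 0.724 ± 0.25, and S100A5 at 1.40 ± 0.15 and 0.938 ± 0.43. S100A3 (log2 fold change -0.83, SE 0.17) and S100A1 (-1.68, SE 0.34) passed the test as lower in PANC-1, and S100A5 (-0.56, SE 0.40; edgeR adjusted p = 0.212) did not.

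Of the 13 annexins, 10 were tested between the lines, 2 of them higher in PANC-1 and 7 lower, with a median of -0.58. Calls were common in this comparison, with 40.3% of all genes tested higher and 36.1% lower. The abundant annexin A2, partner of S100A10, was at 1903 and 1844 CPM in AsPC-1 controls and 1657, 1579 and 1605 CPM in PANC-1 controls (log2 difference -0.24, SE 0.05; edgeR adjusted p = 2.94e-04). The 2 partners therefore differed between the lines by unequal amounts: S100A10 in PANC-1 was 27.5% of its AsPC-1 level, and ANXA2 was 84.7%. Annexin A1, partner of S100A11, differed by -0.93 (SE 0.06), and annexin A11, a partner of S100A6, by -1.33 (SE 0.05), while S100A6 itself was higher in PANC-1. The largest annexin differences were near presence and absence. ANXA13 had 1620 and 1300 counts against 0, 1 and 0, ANXA3 had 360 and 303 against 0, 0 and 2, and ANXA6 had 1 and 2 counts in AsPC-1 against 951, 784 and 958 in PANC-1. ANXA4 was at 975 and 1002 CPM against 75.5, 74.7 and 71.9 CPM (-3.76, SE 0.06).

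Among 24 genes for proteins that S100 proteins bind, 22 were tested, 12 of them higher in PANC-1 and 8 lower, with a median of 0.29. These counts, and those of the receptors below, stand beside 40.3% higher and 36.1% lower over all genes tested. The 4 with the largest differences were all higher in PANC-1. SYT1, a vesicle protein that S100A13 binds, had 0 counts in both AsPC-1 controls and 702 to 805 in PANC-1 controls, and the calcium channel TRPV6 had 0 against 42 to 69. MYH10, the non-muscle myosin heavy chain IIB, was at 3.57 and 3.10 CPM against 101, 98.8 and 101 CPM (log2 change 4.88, SE 0.11), and the potassium channel KCNK3 had 1 and 0 counts against 17, 19 and 25. MYH9, the heavy chain of the myosin that S100A4 binds, was at 1257 and 1292 CPM against 1265, 1171 and 1222 CPM and was not called (-0.09, 95% interval -0.18 to 0.01). Of the 4 receptor genes, 3 were tested and 2 were lower in PANC-1: TLR4 at 26.4 and 24.7 CPM against 0.587, 0.367 and 1.01 CPM (-5.26, SE 0.20), and BSG, which encodes basigin (-0.50, SE 0.05). AGER, which encodes a receptor of several S100 proteins, was at 2.66 ± 0.75 and 3.05 ± 0.58 CPM (SD, n = 2 and 3).

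Within 50 kb of a member the annotation lists 26 other genes, of which 12 were tested. Of the 12, 2 were called higher in PANC-1 and 3 lower, with a median of -0.00, beside 40.3% higher and 36.1% lower over all genes tested. The 3 of these 5 called genes with the largest changes were BX470102.2, a long noncoding RNA gene 603 bases from S100A16 (-2.43, SE 0.46), S100A1 and S100A3.

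The comparison within AsPC-1 asked which transcripts differed between MYEOV siRNA libraries and controls, whose treatment is not settled. S100A10, S100A16, S100A6, S100A11 and S100A14 fell, and the other 4 members were not called. In this comparison 16.3% of 14304 tested genes were called lower and 16.6% higher (edgeR, 2 against 3 libraries). The count was therefore 5 of 9 lower, and the median log2 fold change of the 9 was -0.30 against -0.00 over all genes tested. The falls of the abundant members were small in size and larger than the spread between libraries. These libraries share their controls with the comparison between lines.

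S100A10 went from 1510 and 1448 CPM in the controls to 1220, 1180 and 1244 CPM in the siRNA libraries. Every siRNA library lay below both controls, at 82.1% of the control mean (log2 change -0.30, SE 0.03; edgeR adjusted p = 2.58e-08). S100A16 went from 414 and 386 CPM to 317, 321 and 326 CPM, without overlap, at 80.4% of control (-0.33, SE 0.04; edgeR adjusted p = 5.02e-08). S100A6 went from 403 and 391 CPM to 348, 336 and 336 CPM (-0.24, SE 0.03; edgeR adjusted p = 4.00e-06), and S100A11 from 713 and 673 CPM to 627, 603 and 611 CPM (-0.19, SE 0.03; edgeR adjusted p = 4.62e-05). In both, all 3 siRNA libraries lay below the controls. S100A14 went from 78 and 79 counts, or 5.92 and 7.0 CPM, to 3.51, 3.78 and 4.71 CPM (-0.70, SE 0.18; edgeR adjusted p = 0.00437). The groups did not overlap, but the S100A14 call was lost when AsPC-1 control replicate 2 was left out (-0.57; adjusted p = 0.0782).

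S100A4, the member with the highest mean level per kilobase in AsPC-1 controls, was not called. Its values were 1053 and 1071 CPM in the controls and 1055, 989 and 1068 CPM in the siRNA libraries, which overlap (log2 change -0.05, 95% interval -0.11 to 0.02; edgeR adjusted p = 0.288). S100A2 (-0.30, SE 0.23; edgeR adjusted p = 0.35), S100A13 (-0.10, SE 0.13; 0.609) and S100P (-0.42, SE 0.40; 0.46) were not called either, and their intervals were wide: -0.75 to 0.15 for S100A2, -0.37 to 0.16 for S100A13 and -1.21 to 0.36 for S100P. As S100A10 and others fell, the 9 genes took 0.318% ± 0.0069 of counts in the siRNA libraries (SD, n = 3), and S100A4 made up 28.7% to 29.6% of the S100 counts there.

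Other cell-type markers moved in the same libraries. The summed level of 6 fibroblast markers went from 296 and 310 CPM to between 105 and 109 CPM, nearly all of it LUM (302 ± 9.9 to 105 ± 1.7 CPM; SD, n = 2 and 3), with PDGFRA at 0 counts. The 4 squamous markers, in effect DSG3 alone, went from between 60.3 and 67.1 to between 32.6 and 35.1 CPM. The 6 epithelial markers summed to 18455 to 18967 CPM in the siRNA libraries, but did not move together. By edgeR, EPCAM (log2 change 0.36, SE 0.04), CDH1 (0.23, SE 0.05), KRT18 (0.17, SE 0.03) and the scarce KRT7 (0.78, SE 0.30) were called higher. KRT19 (-0.16, SE 0.03) was called lower, and KRT8 (-0.01, SE 0.03) was not called. The part of all these markers in the S100 result was not tested.

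In PANC-1 no S100 member was called. Of the 9, 7 passed the low-count filter, and none of the 7 had an edgeR adjusted p under 0.05, while 9.08% of 14929 genes were called in either direction. At an unadjusted p under 0.05 there were 2, S100A16 and S100A13, and DESeq2 called 0 of the 5 to which it gave an adjusted p. The median of the 7 was -0.00, as was that of all genes tested. S100A16 was at 60.9, 53.6 and 59.2 CPM in the controls and at 61.0, 68.7 and 64.0 CPM in the siRNA libraries. All 3 siRNA libraries lay above the controls, the lowest of them by little (log2 change 0.15, SE 0.07; edgeR adjusted p = 0.193). S100A13 was at 6.0, 4.85 and 3.98 CPM against 3.74, 3.96 and 2.97 CPM (-0.47, SE 0.19; edgeR adjusted p = 0.144).

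The other abundant members overlapped between the groups in PANC-1. S100A10 was at 410, 394 and 435 CPM against 380, 388 and 415 CPM (log2 change -0.07, 95% interval -0.17 to 0.03). S100A6 was at 746, 651 and 670 CPM against 638, 620 and 702 CPM (-0.08, -0.19 to 0.04). S100A11 was at 281, 250 and 254 CPM against 259, 275 and 265 CPM (0.02, -0.08 to 0.13), and S100A4 at 116, 110 and 117 CPM against 108, 111 and 125 CPM (-0.00, -0.12 to 0.12). The intervals of S100A10, S100A6, S100A11 and S100A4 all include 0. S100A2 was at 2.02, 1.76 and 2.72 CPM against 3.01, 2.59 and 2.21 CPM (0.26, -0.17 to 0.70). S100A14 (0, 0 and 3 counts against 2, 0 and 3) and S100P (6, 2 and 1 against 6, 1 and 9) were too scarce to be tested. The summed epithelial markers went from 2265 to 2534 CPM down to 1931 to 1964 CPM in these libraries, but the markers did not move together. By edgeR, KRT8 (-0.41, SE 0.05) and KRT18 (-0.33, SE 0.05) were called lower and CDH1 (0.45, SE 0.12) higher. EPCAM (0.36, SE 0.14), KRT7 and KRT19 were not called. The part of these markers in the S100 values was not tested.

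**Figure D3:**
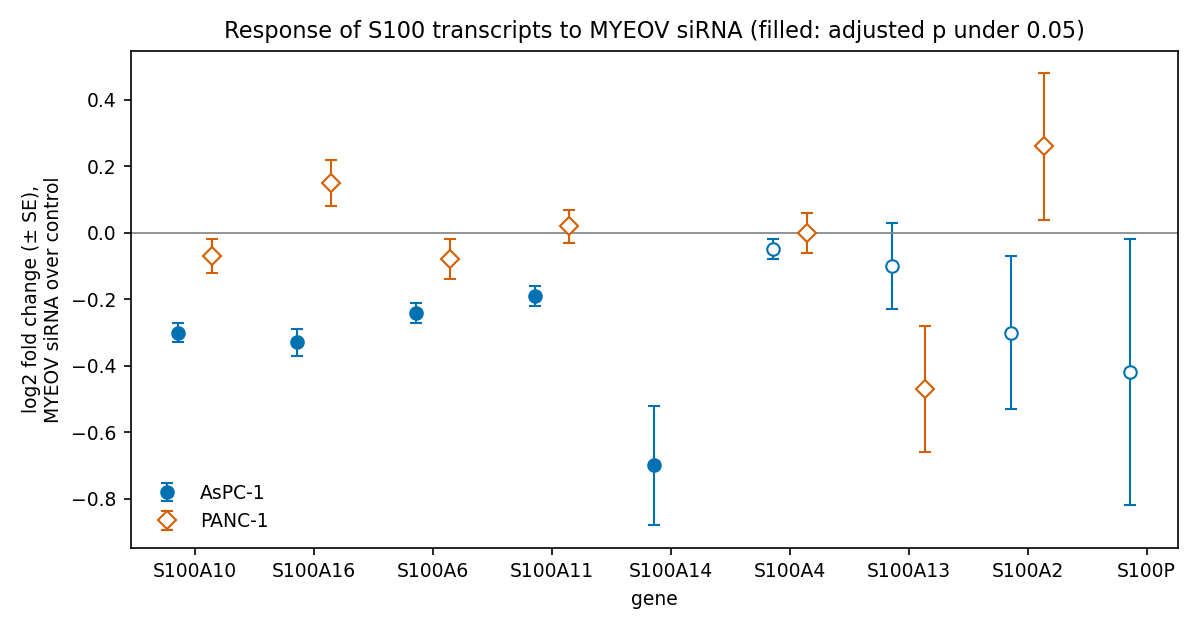
Log2 fold change of each S100 transcript after MYEOV siRNA with its standard error, in AsPC-1 (circles, n = 2 controls and 3 siRNA libraries) and PANC-1 (diamonds, n = 3 and 3), filled where the adjusted p is under 0.05. All 9 AsPC-1 points lie at or below -0.05 and 5 are filled, whereas the 7 PANC-1 points lie on both sides of 0 and none is filled.

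Whether the lines responded differently was tested directly, as an interaction in 1 edgeR fit over all 11 libraries, where 4.36% of 16680 genes were called. S100A16 was the member that passed: its change in PANC-1 exceeded that in AsPC-1 by a log2 difference of 0.47 (SE 0.08; edgeR adjusted p = 0.00122), and it was called under all 17 alternatives, with adjusted p between 8.19e-07 and 0.022. In AsPC-1 all 3 siRNA libraries were below the controls. In PANC-1 all 3 were above them, the lowest at 61.0 CPM against 60.9 CPM in the highest control. The change within PANC-1 was not called (edgeR adjusted p = 0.193), so a rise there was not shown. For S100A10 the difference was 0.22 (SE 0.06; edgeR adjusted p = 0.0577), and it was called under 8 of 17 alternatives, with adjusted p from 0.0177 to 0.282. S100A11 (0.20, SE 0.07; edgeR adjusted p = 0.105), S100A6 (0.15, SE 0.08; 0.348) and S100A4 (0.03, SE 0.07; 0.906) did not pass, so a different response of S100A6 and S100A11 in the lines was not shown. The median difference of the 9 was 0.22, against -0.02 over all genes tested. It includes S100A14 (1.39, SE 1.12) and S100P (1.26, SE 0.84), which were not called. Both were too scarce for a test within PANC-1 and entered this fit through their AsPC-1 counts. The median is therefore a description, and a different response of the family was not shown. MYEOV itself fell to 36.3% of control in AsPC-1 and to 54.5% in PANC-1, and the part of that difference in the S100A16 result was not tested.

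The annexins that pair with S100 proteins were read in the same fits. In AsPC-1, 4 of 10 tested annexins fell and 1 rose, with a median of -0.07. Over all genes tested there, 16.3% were called lower and 16.6% higher. ANXA2 went from 1903 and 1844 CPM to 1627, 1635 and 1703 CPM (log2 change -0.19, SE 0.03; edgeR adjusted p = 1.32e-05), without overlap, as its partner S100A10 fell by 0.30. ANXA1, partner of S100A11, went from 230 and 216 CPM to 197, 192 and 209 CPM (-0.18, SE 0.04; edgeR adjusted p = 0.00151). ANXA5, a phosphatidylserine binder, had the largest fall of the annexins, from 171 and 169 CPM to 141, 142 and 146 CPM (-0.26, SE 0.04), and ANXA4 fell by 0.18 (SE 0.03). ANXA3 rose from 27.3 and 26.8 CPM to between 31.2 and 32.0 CPM (0.21, SE 0.07; edgeR adjusted p = 0.0336, DESeq2 adjusted p = 0.165), and ANXA11 was not called (0.06, SE 0.03; edgeR adjusted p = 0.152). In PANC-1 none of 8 tested annexins was called by edgeR, with 1 at an unadjusted p under 0.05, 0 of 8 by DESeq2 and a median of 0.05. Over all genes tested in PANC-1, edgeR called 9.08% in either direction. The interaction passed for ANXA4 (0.24, SE 0.06; edgeR adjusted p = 0.0232) and ANXA2 (0.23, SE 0.05; edgeR adjusted p = 0.0146), 2 of 11 tested, beside 4.36% of all genes tested.

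**Figure D4:**
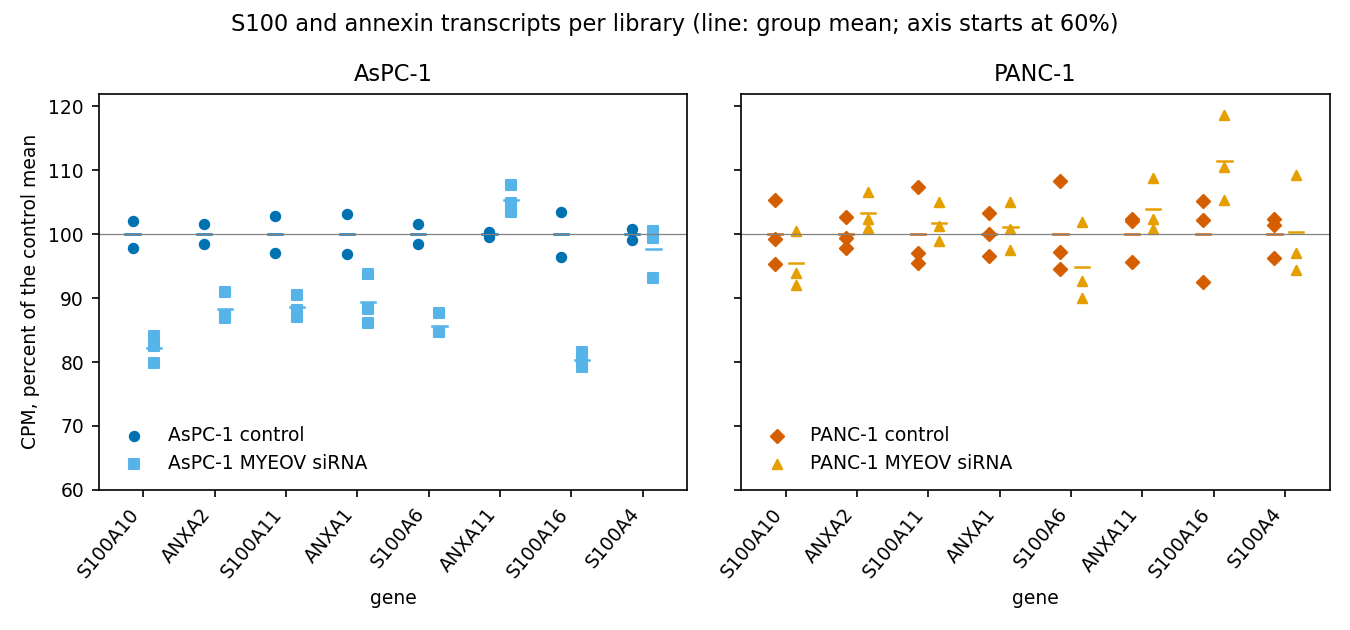
CPM of 5 S100 and 3 annexin transcripts in each library as a percent of the control mean of its line, with control and siRNA libraries side by side, a short line at each group mean and an axis that starts at 60%. In AsPC-1 the siRNA libraries of S100A10, ANXA2, S100A11, ANXA1, S100A6 and S100A16 all lie below both controls, and in PANC-1 the groups overlap for all 8 genes except S100A16.

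Of the binding-partner genes, 5 of 19 tested were called in AsPC-1, each of them higher (median 0.04), beside 16.6% of all genes tested called higher and 16.3% lower, and DESeq2 called 3 of 18. PPFIBP1, which encodes liprin beta 1, a binding partner of S100A4, went from 137 and 129 CPM to 202, 193 and 184 CPM, without overlap (log2 change 0.52, SE 0.04; edgeR adjusted p = 1.31e-09). HLTF, a chromatin-remodelling ATPase, rose by 0.28 (SE 0.05) and IQGAP1, a scaffold bound by S100P, by 0.17 (SE 0.03). In PANC-1, 2 of 22 rose and 2 fell (median 0.01), beside 9.08% of all genes tested called in either direction. MYH9 went from 1265, 1171 and 1222 CPM to 1573, 1600 and 1511 CPM, without overlap (0.36, SE 0.04; edgeR adjusted p = 1.52e-04), and IQGAP1 rose by 0.17 (SE 0.04). MYH10 fell by 0.33 (SE 0.05). The interaction passed for MYH9 (0.36, SE 0.05) and PPFIBP1 (-0.41, SE 0.08), 2 of 23 tested, beside 4.36% of all genes tested. The S100A4 transcript itself was called in neither line.

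Among the receptors, TLR4 fell in AsPC-1, from 26.4 and 24.7 CPM to 15.1, 14.6 and 18.5 CPM (log2 change -0.69, SE 0.10; edgeR adjusted p = 6.09e-06). That was 1 of 3 tested, beside 16.3% of all genes tested called lower. In PANC-1 edgeR called 0 of 2, with 0 at an unadjusted p under 0.05, and DESeq2 called 0 of 1, beside 9.08% of all genes tested by edgeR. Of the other S100 genes, S100A3 fell in AsPC-1, from 6.98 and 6.11 CPM to 4.69, 4.52 and 4.88 CPM (-0.50, SE 0.17; edgeR adjusted p = 0.0218, DESeq2 adjusted p = 0.147). S100A3 lies within the annotated span of S100A4, with no exon base in common, and S100A4 was not called. Of the 12 tested genes within 50 kb of a member, S100A3 and AC093323.1 (-0.46, SE 0.11), which lies 16314 bases from S100P, fell in AsPC-1. Those 2 of 12 stand beside the 16.3% called lower over all genes tested. In PANC-1 edgeR called 0 of 11, where 1 had an unadjusted p under 0.05 and DESeq2 called 0 of 6.

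The siRNA comparisons also allow a look at the 3′ UTRs. The 7-base word CTCATGT had been picked out earlier from fold changes in these same libraries, so its presence supports nothing about the S100 genes. It was in 1 of the 9 members, S100P, beginning at base 92 of the 3′ UTR, where it is shown with 10 bases on each side from the GENCODE transcript and with the word in capitals.
S100P: gctgagcctgCTCATGTacctctgatt
Of 11945 genes with a 3′ UTR tested in AsPC-1, 12.9% held the word. The 3′ UTRs of the 9 members had a median length of 156 bases, against 1359 over those tested genes. The members that fell in AsPC-1 did not hold it, and for a word picked this way that absence supports nothing about them either.

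Across the 11 libraries, the genes whose log2 CPM followed S100A14 most closely among 9897 genes were PDGFA (Pearson r = 0.996), NOS3 (0.995) and ALG5 (0.994). Those closest to S100P were VPS4B (0.914), NUPL2 (0.912) and SLC27A1 (0.911). These values are descriptions: the 11 points fall into the 2 cell lines, and the counts of S100P are low.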

How the data were processed

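Poly(A) RNA was sequenced as paired reads of 150 bases, per the labels' protocols. The submitters' processing notes list HISAT2, HTSeq and hg19, with no versions. The authors deposited 1 table of raw gene counts per library, without normalization, and 0 rows lacked a gene name. All 58735 identifiers occur in GENCODE release 29 (Ensembl 94, GRCh38), which supplied names and positions. No coordinate came from the deposited tables, and the counting's strand setting is not given in the sources. Groups were taken from the sample titles.

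The counts were tested with the two-sided quasi-likelihood test of edgeR 4.0.16 (R 4.3.3), after filterByExpr and TMM scaling, and p-values were adjusted over all genes tested by Benjamini-Hochberg, with 0.05 as the threshold: control against control, siRNA against control in each line, and the interaction over all 4 groups. The standard error is the absolute log2 fold change divided by the square root of F, and intervals are at 95%. CPM values were computed here from the counts with TMM factors over all 11 libraries, and per kilobase from the union of annotated exons. The fits were tested on simulated counts.

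The members, gene lists and tests were chosen with earlier results of these data known. The genes named are the 9 members, MYEOV, up to 4 called genes per list and comparison with the largest change, other S100 genes with at least 1 CPM in at least 2 libraries, up to 3 called genes within 50 kb of a member, and the 3 genes most correlated with S100P and with S100A14 among genes averaging at least 3 in log2 CPM (pseudocount 0.5 CPM). Annexins and binding partners beyond this, such as MYH9 and AGER between the lines, ANXA1, ANXA2 and ANXA11, were named because of the S100 protein they bind, with their values already known. Some genes that the rule takes are left out of the text. As alternatives, scaling was changed to RLE or upper quartile, the low-count filter was dropped or raised to 5 CPM, and use was made of DESeq2 1.42.0, the replicate number as a block, 1 fit over all groups and leaving out each library. Promoters came from RefSeq (GRCh38.p14). Depth limits S100P and S100A14: 3 counts correspond to 0.199 to 0.248 CPM per library. Tables were made with Python 3.11.15, pandas 2.3.3, numpy 2.4.6 and scipy 1.17.1, and figures with matplotlib 3.10.9.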

Additional observations from a re-analysis of the deposited data

Results flagged for a closer look

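S100A16 responded differently in the lines by a direct test of the difference: the log2 change after MYEOV siRNA was larger in PANC-1 than in AsPC-1 by 0.47 (SE 0.08; edgeR interaction test over 11 libraries, adjusted p = 0.00122). The change within AsPC-1 was -0.33 (SE 0.04) and passed the test, and that within PANC-1 was 0.15 (SE 0.07; edgeR adjusted p = 0.193) and did not.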

How the results depend on the processing

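Between the lines and in AsPC-1, calls of members held under every alternative that could test them, except S100A2 between the lines and S100A14 in AsPC-1, both without AsPC-1 control replicate 2. The log2 change between the lines ran from -9.49 (replicate block) to -5.87 for S100A14 and from -3.34 to -1.98 for S100P. Leaving out an AsPC-1 control leaves 1, which is then assumed to vary like the other libraries. In AsPC-1 DESeq2 called 1498 genes lower, against 2332 with edgeR. In PANC-1 no member was called under any alternative. The value of S100A4 there, near 0, turned to 0.00 with RLE scaling and DESeq2, to 0.01 with upper-quartile scaling, and ranged from -0.07 to 0.04 without single libraries, and that of S100A11 from -0.01 (without PANC-1 control replicate 2) to 0.08. Genes called in PANC-1 numbered 621 higher and 735 lower, and 976 higher in 1 fit over all groups, and 191 to 894 higher and 347 to 818 lower without single libraries, the fewest without PANC-1 siRNA replicate 1 and the most without PANC-1 control replicate 2. For the interaction, S100 members called were 2 with upper-quartile scaling, no filter, a filter of 5 CPM, DESeq2, the replicate block and 4 of the single libraries left out. S100A10 was the second (0.24, 0.21, 0.22, 0.23, 0.25, and 0.21 to 0.26 without single PANC-1 libraries), except that without PANC-1 control replicate 1 it was S100A11 (0.26). Without single libraries, 147 to 594 genes were called higher and 150 to 462 lower (346 and 381 with all), and S100A4 ranged from -0.03 (without PANC-1 siRNA replicate 3) to 0.09.

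In PANC-1, deviations of same-numbered libraries from their group means had correlations of -0.0162, -0.0948 and -0.0172. With 3 libraries per group, these values cannot decide whether the numbers pair libraries. With the replicate block, 252 genes were called higher and 376 lower in PANC-1, and 225 higher and 245 lower in the interaction. Without mitochondrial counts the members' shares were 0.432% and 0.368% in AsPC-1 control and siRNA libraries and 0.179% and 0.173% in PANC-1. With the length of the longest transcript, levels in CPM per kb in AsPC-1 and PANC-1 controls were 4.03 and 2.17 for S100A2, 1407 and 151 for S100A4, 590 and 1024 for S100A6, 1231 and 344 for S100A10, 1167 and 441 for S100A11, and 349 and 50.5 for S100A16, which puts S100A10 before S100A11 in AsPC-1.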
